A study of Mus musculus with 6 samples.

Results

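E2F transcription factors bind the promoters of genes for DNA replication and cell division, and were examined here at the RNA level in activated mouse B cells that had or lacked hnRNPL, an RNA-binding protein best known for alternative splicing. The members are the 8 E2F genes, *E2f1* to *E2f8*, and the genes of their DP dimer partners, *Tfdp1* and *Tfdp2*. They were chosen by gene name, with no measured value in the rule, but with earlier results of these data known. They are 10 of the 55421 genes in the table. Polyadenylated RNA of sorted GFP+ B cells was sequenced from the spleens of 3 WT and 3 hnRNPL-deficient mice, 1 library per mouse. All mice were C57BL6/J, carried CD21-cre, which deletes in mature B cells, and the Rosa mT/mG allele, which turns on GFP in cells where Cre has acted. The hnRNPL-deficient mice were Hnrnpl F/F and the WT mice Hnrnpl +/+, so Cre was present and active in both groups. Splenic B cells were cultured with LPS (5 µg/ml) and IL-4 (5 ng/ml) and GFP+ cells were sorted after 24 h. The study used mice of both sexes, aged over 6 weeks, and the age and sex behind each library were not used here.

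A typical E2F protein binds DNA as a pair with a DP protein. E2F1, E2F2 and E2F3 activate transcription when they are free of the retinoblastoma protein, which releases them after cyclin-dependent kinases phosphorylate it late in G1. E2F4 and E2F5 act mostly as repressors with the pocket proteins p107 and p130, E2F6 represses through polycomb proteins and needs no pocket protein, and E2F7 and E2F8 repress E2F targets without a DP partner. In B cells, stimulation by LPS and IL-4 drives resting cells into the cell cycle, and E2F activity is part of the step from G1 into S phase.

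The libraries held 40395186 to 75180749 reads on genes. *Hnrnpl* stood at 24371, 25580 and 24174 normalized counts in WT libraries 1, 2 and 3 and at 2178, 1519 and 1297 in the hnRNPL-deficient ones, in the direction of the labels. A normalized count is a read count divided by the library's size factor. The 6 B cell markers summed to 266462 to 350783 normalized counts per library, and the markers of T cells (19.7 to 38.4), NK cells (0 to 7.21) and erythroid cells (5.19 to 27.3) were close to 0. The 6 myeloid markers summed to 260 to 331 in WT and 1239 to 1382 in hnRNPL-deficient cells, nearly all of it from *Adgre1*, while *Lyz2* reached at most 2.02 and *S100a8* and *S100a9* were at 0 in all libraries. The sums of 4 plasma cell markers overlapped between the groups (33282 to 39454).

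RefSeq promoter windows, which run from 250 bases before to 50 bases after a start site, were found for 8 of the 10 genes, *E2f4* and *E2f5* being those without. They were searched for the E2F-type letters TTTNNCGC on both strands. These letters occur in 5.17% of all 32851 windows, non-coding genes included, and in a window of 5.93% of all 27025 genes. Among the members the first windows of *E2f2*, *E2f3*, *E2f7* and *Tfdp1* held them, and the windows of *E2f1*, *E2f6*, *E2f8* and *Tfdp2* did not. The second windows of *E2f2* and *E2f3* held none, and that of *Tfdp1*, which overlaps its first, held the same match. The 1 window listed for *E2f1* lies inside the annotated gene, 466 bases downstream of its outermost start, so the bases before that start were not searched. The sequences of a pair of activators and of both DP genes are shown because the genes within each pair differ in the comparison that follows. They are on GRCm38.p6, at chr4:136172024-136172323 for *E2f2* (plus strand), chr13:29986014-29986313 for *E2f3* (minus strand), chr8:13338501-13338800 for *Tfdp1* (plus strand) and chr9:96258455-96258754 for *Tfdp2* (plus strand). Each is written along the strand of the gene, and capitals mark E2F-type letters or their reverse complement.
E2f2: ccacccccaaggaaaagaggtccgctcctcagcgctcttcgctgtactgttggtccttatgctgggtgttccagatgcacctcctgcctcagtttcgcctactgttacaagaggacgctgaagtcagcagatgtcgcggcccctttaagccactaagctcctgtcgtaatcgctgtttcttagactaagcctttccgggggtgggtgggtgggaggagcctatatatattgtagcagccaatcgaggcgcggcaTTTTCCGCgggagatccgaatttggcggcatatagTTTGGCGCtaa
E2f3: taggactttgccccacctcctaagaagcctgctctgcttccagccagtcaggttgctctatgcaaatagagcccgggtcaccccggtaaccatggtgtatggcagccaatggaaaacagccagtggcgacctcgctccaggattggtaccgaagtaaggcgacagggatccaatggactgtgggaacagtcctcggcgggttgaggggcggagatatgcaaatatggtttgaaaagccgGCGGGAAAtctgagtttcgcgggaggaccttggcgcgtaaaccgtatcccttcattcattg
Tfdp1: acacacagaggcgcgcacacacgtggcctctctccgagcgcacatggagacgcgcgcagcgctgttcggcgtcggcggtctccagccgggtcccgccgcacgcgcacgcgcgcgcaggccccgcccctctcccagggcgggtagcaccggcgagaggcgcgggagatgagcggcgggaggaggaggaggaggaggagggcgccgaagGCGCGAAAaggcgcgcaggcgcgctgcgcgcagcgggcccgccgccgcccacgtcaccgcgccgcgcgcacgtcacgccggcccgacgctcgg
Tfdp2: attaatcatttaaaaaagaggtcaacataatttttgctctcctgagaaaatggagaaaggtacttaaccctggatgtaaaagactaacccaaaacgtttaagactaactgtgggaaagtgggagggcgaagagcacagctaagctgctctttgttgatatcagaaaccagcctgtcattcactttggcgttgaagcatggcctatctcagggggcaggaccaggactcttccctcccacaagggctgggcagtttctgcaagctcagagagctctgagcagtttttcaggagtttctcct
The *E2f2* window held 2 matches, 4 and 39 bases after its RefSeq start, which itself lies upstream of the outermost GENCODE start. The *E2f3* match began 11 bases and the *Tfdp1* match 43 bases before the start, both as the reverse complement. The *Tfdp2* window belongs to an internal start, 62430 bases downstream of the outermost one, and differed from the *Tfdp1* window in base composition, with 45.7% against 78.0% G and C. A match is a description of letters and not evidence of binding.

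All 10 genes averaged 10 or more normalized counts over the libraries, and were tested with all other genes that did, 17640 in all. The test was limma on log2(normalized count + 1), and a gene was called where the p, adjusted by Benjamini and Hochberg, was under 0.1 and the change reached 1.5-fold. *E2f1* and *E2f3* fell, *Tfdp2* rose, and the other 7 genes were not called. Over all tested genes 4.08% were called lower and 7.28% higher in hnRNPL-deficient cells. Groups that did not overlap, with every hnRNPL-deficient library below every WT library, were found for 3 members (*E2f1*, *E2f3* and *E2f6*) against 16.3% of all genes, and the opposite order for 1 member (*Tfdp2*) against 17.7%. The mean was lower in hnRNPL-deficient cells for 8 of 10 members, as for 52.7% of all genes, and the median log2 fold change of the 10 was -0.25 beside -0.03 for all genes.

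**Figure D1:**
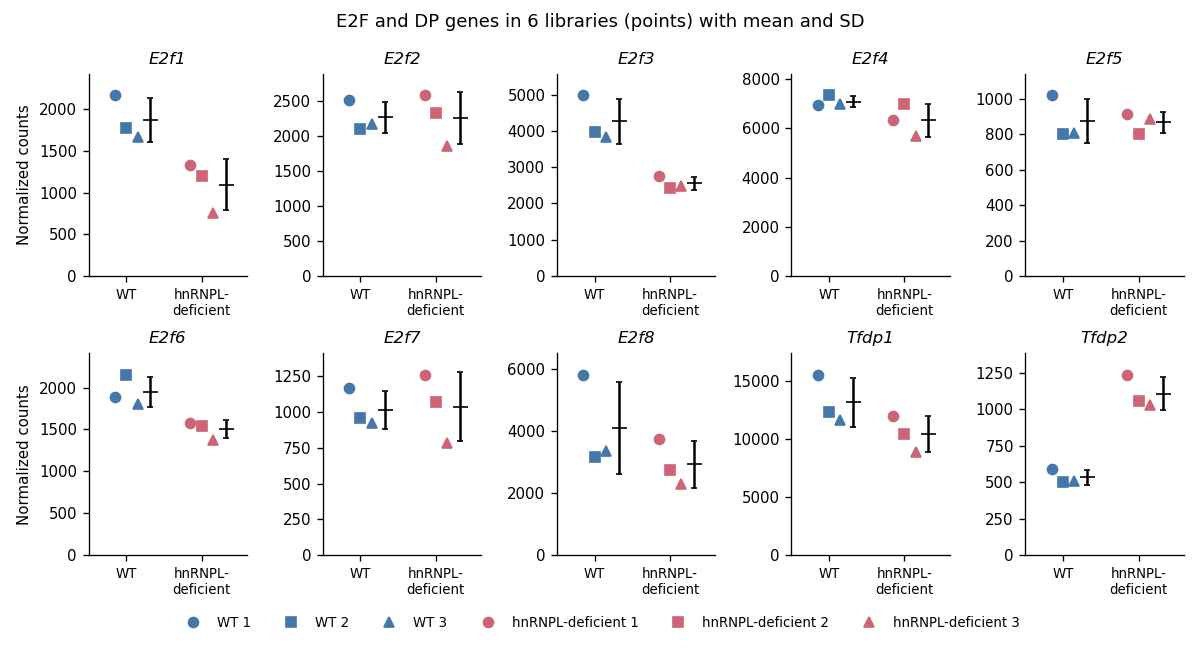
Normalized counts (vertical axes, each from 0) of the 10 E2F and DP genes in each WT and hnRNPL-deficient library (points), with the mean and SD of 3 mice beside them. The groups are apart for *E2f1*, *E2f3*, *E2f6* and *Tfdp2* and overlap for the others.

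**Figure D2:**
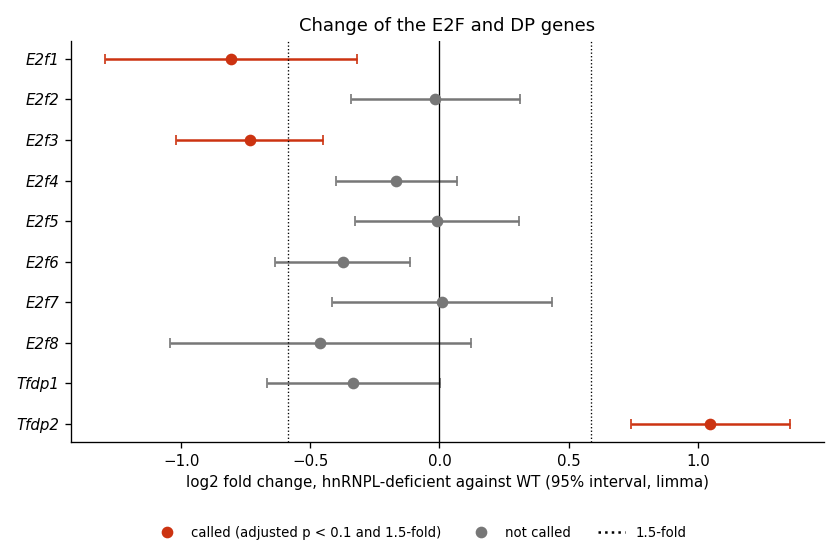
Log2 fold change of each gene (horizontal axis, hnRNPL-deficient against WT) with its 95% interval from limma; dotted lines mark 1.5-fold. The intervals of *E2f1*, *E2f3* and *E2f6* lie below 0 and that of *Tfdp2* above 0, and *E2f6* falls short of 1.5-fold.

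Of the activators, *E2f1* (ENSMUSG00000027490.17, GRCm38 chromosome 2, 154559407 to 154569892, minus strand) encodes the E2F best known for both S phase entry and apoptosis. Its normalized counts were 2168, 1771 and 1673 in WT and 1333, 1200 and 750 in hnRNPL-deficient cells. All hnRNPL-deficient values were below all WT values, and hnRNPL-deficient library 3 was far below the other two. The mean fell from 1871 ± 262 to 1095 ± 306 (SD, n = 3 mice each), to 58.5% of WT, a log2 fold change on the log2(count + 1) scale of -0.81 (standard error, SE, 0.214, 95% interval -1.29 to -0.32, adjusted p = 0.0460 from limma). Leaving out WT library 1 ended the call (-0.70, adjusted p = 0.115 from limma), as did leaving out hnRNPL-deficient library 3, where the change of -0.55 was under 1.5-fold (adjusted p = 0.0611), and over all alternatives the adjusted p ranged from 0.00441 to 0.115. In bulk RNA, fewer cells in a given state cannot be told apart from less RNA per cell.

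*E2f3* (ENSMUSG00000016477.18, chromosome 13, 29906575 to 29986063, minus strand) is the activator that can be made as a long or a short protein from separate first exons, which values per gene do not separate. Its values were 4986, 3981 and 3841 in WT and 2764, 2418 and 2475 in hnRNPL-deficient cells. The hnRNPL-deficient libraries were close to each other and all below WT. The mean fell from 4269 ± 624 to 2553 ± 185 normalized counts, to 59.8% of WT, and the log2 fold change was -0.73 (SE 0.124, 95% interval -1.02 to -0.45, adjusted p = 0.00855 from limma). It was called in all 17 alternatives to this fit at the same thresholds, and lay between -0.81 and -0.62 with each library left out in turn.

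*E2f2* (ENSMUSG00000018983.9, chromosome 4, 136172394 to 136196057, plus strand), the remaining activator, had 2521, 2108 and 2170 normalized counts in WT and 2584, 2333 and 1852 in hnRNPL-deficient cells. The highest and the lowest of the 6 values were both from hnRNPL-deficient libraries. The means were 2266 ± 222 and 2256 ± 372, and the log2 fold change of -0.02 had a 95% interval of -0.34 to 0.31 (adjusted p = 0.957 from limma), with a sign that turned under 5 of 17 alternatives. A change of up to about these limits in either direction is within what the 6 libraries allow.

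The members were then compared within libraries, as the difference between the log2 values of a pair of genes in each library, over 7 pairs. With 3 against 3 mice the exact two-sided permutation test cannot give a p under 0.1. The log2 difference of *E2f1* to *E2f2* went from -0.28 ± 0.083 in WT to -1.07 ± 0.200 under hnRNPL deficiency (SD, n = 3), a shift of -0.79 with no overlap (exact permutation p = 0.1, 0.14 adjusted over the 7 pairs). *E2f2* moved by 0.72 relative to *E2f3*, also with no overlap (exact permutation p = 0.1, adjusted 0.14). The difference of *E2f1* to *E2f3* shifted by -0.07 with overlapping groups (exact permutation p = 1), and by 0.16 without hnRNPL-deficient library 3.

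Of the repressors that act with pocket proteins, *E2f4* (ENSMUSG00000014859.9, chromosome 8, 105297663 to 105305370, plus strand) had 6953, 7350 and 6978 normalized counts in WT and 6326, 7010 and 5679 in hnRNPL-deficient cells. The groups overlapped through hnRNPL-deficient library 2. The log2 fold change was -0.17 (SE 0.103, 95% interval -0.40 to 0.07, adjusted p = 0.335 from limma). *E2f5* (ENSMUSG00000027552.14, chromosome 3, 14578641 to 14606309, plus strand) had 1021, 801 and 811 in WT and 913, 800 and 890 in hnRNPL-deficient cells, with the groups intermixed. Its log2 fold change was -0.01 (95% interval -0.33 to 0.31, adjusted p = 0.972 from limma), and its sign turned under 5 of 17 alternatives. *E2f3* shifted by -0.57 relative to *E2f4* with no overlap (exact permutation p = 0.1, adjusted 0.14), and *E2f4* relative to *E2f5* by -0.16 with overlap (exact permutation p = 0.5, adjusted 0.583).

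*E2f6* (ENSMUSG00000057469.8, chromosome 12, 16810963 to 16839742, plus strand) encodes the repressor that works with polycomb proteins. It had 1890, 2154 and 1808 normalized counts in WT and 1582, 1545 and 1380 in hnRNPL-deficient cells. All hnRNPL-deficient values were below all WT values. The mean was 1951 ± 181 in WT and 1502 ± 107 in hnRNPL-deficient cells, 77.0% of WT, and the log2 fold change of -0.37 (SE 0.115, 95% interval -0.64 to -0.11, adjusted p = 0.0711 from limma) was under 1.5-fold, so the gene was not called. Over the alternatives its adjusted p ranged from 0.0245 to 0.229.

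Of the atypical repressors, *E2f7* (ENSMUSG00000020185.16, chromosome 10, 110745439 to 110787384, plus strand) had 1164, 955 and 922 normalized counts in WT and 1259, 1066 and 780 in hnRNPL-deficient cells. The hnRNPL-deficient values spanned the whole WT range, and the log2 fold change was 0.01 (95% interval -0.42 to 0.44, adjusted p = 0.978 from limma), with a sign that turned under 5 of 17 alternatives. *E2f8* (ENSMUSG00000046179.17, chromosome 7, 48866429 to 48881596, minus strand) had 5823, 3156 and 3350 in WT and 3760, 2747 and 2283 in hnRNPL-deficient cells. WT library 1 stood far above the other WT libraries, and the groups overlapped. The log2 fold change of -0.46 (SE 0.255, 95% interval -1.04 to 0.12, adjusted p = 0.284 from limma) was -0.18 without WT library 1. The adjusted p of *E2f8* ranged from 0.0164 (limma with the library number as a block, under 1.5-fold) to 0.627 (limma without WT library 1). *E2f8* is 20.0 Mb from *Hnrnpl* on the same chromosome and shares 610 exon bases with *Gm2788* on the opposite strand, and reads were counted by strand. The difference of *E2f7* to *E2f8* shifted by 0.47 with no overlap (exact permutation p = 0.1, adjusted 0.14).

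Of the DP genes, *Tfdp2* (ENSMUSG00000032411.15, chromosome 9, 96196275 to 96323646, plus strand), which encodes the DP2 subunit, had 594, 505 and 507 normalized counts in WT and 1238, 1059 and 1028 in hnRNPL-deficient cells. The lowest hnRNPL-deficient value was well above the highest WT value. The mean rose from 535 ± 50.9 to 1108 ± 113, to 207% of WT, with a log2 fold change of 1.05 (SE 0.135, 95% interval 0.74 to 1.36, adjusted p = 0.00291 from limma), and the gene was called in all 17 alternatives at the same thresholds. *Tfdp1* (ENSMUSG00000038482.11, chromosome 8, 13338751 to 13378448, plus strand), which encodes DP1, had 15525, 12282 and 11639 in WT and 11971, 10407 and 8915 in hnRNPL-deficient cells. The groups overlapped through hnRNPL-deficient library 1, and the log2 fold change was -0.33 (SE 0.146, 95% interval -0.67 to 0.00, adjusted p = 0.183 from limma). The adjusted p of *Tfdp1* ranged from 0.0180 (limma with the library number as a block, under 1.5-fold) to 0.394 (limma without WT library 1). The log2 difference of *Tfdp1* to *Tfdp2* went from 4.61 ± 0.094 in WT to 3.23 ± 0.098 under hnRNPL deficiency, a shift of -1.38 with no overlap (exact permutation p = 0.1, adjusted 0.14).

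To compare levels between genes, normalized counts were divided by the length of each gene's merged exons in kb. *Tfdp1* was the highest in WT (3583 ± 568 normalized counts per kb), followed by *E2f4* (2893 ± 90.7), and the WT values of these genes did not overlap with each other or with *E2f3* (786 ± 115). From *E2f3* down through *E2f8* (755 ± 273), *E2f1* (593 ± 83.1), *E2f5* (492 ± 69.9) and *E2f2* (464 ± 45.6), each neighbour overlapped with the next. *E2f6* (344 ± 31.9), *E2f7* (112 ± 14.6) and *Tfdp2* (38.2 ± 3.63) followed in that order, each apart from its neighbours. In hnRNPL-deficient cells *Tfdp1* (2842 ± 416) overlapped with *E2f4* (2585 ± 272) and *E2f7* (115 ± 26.7) with *Tfdp2* (79.0 ± 8.07), while *E2f3* (470 ± 34.2) came after *E2f8* and *E2f5*, and *E2f1* (347 ± 97.0) after *E2f2*, each overlapping with its neighbours. With the longest transcript as the length, *E2f8* was ahead of *E2f3* and *E2f6* ahead of *E2f5* and *E2f2* in WT.

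**Figure D3:**
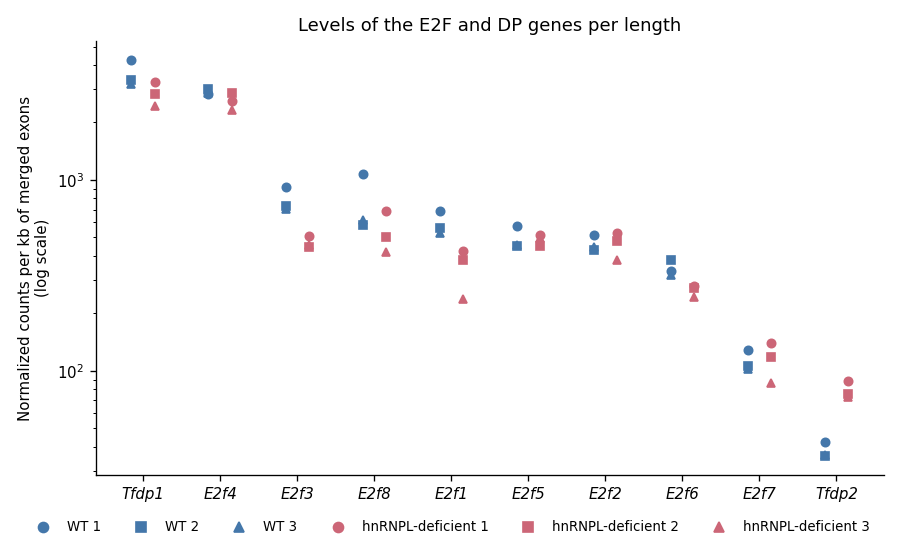
Normalized counts per kb of merged exons (vertical axis, log scale) of the 10 genes in the order of their WT means, in each library (points). *Tfdp1* and *E2f4* lie above all other genes and *Tfdp2* has the lowest mean in both groups, with a higher level in hnRNPL-deficient than in WT cells.

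As sums of these levels per kb, the activators stood at 0.623, 0.501 and 0.510 of the sum of *E2f4* and *E2f5* in WT and at 0.472, 0.394 and 0.381 in hnRNPL-deficient cells, with no overlap. *E2f2* made up 25.3% ± 1.07 of the activator sum in WT and 36.1% ± 0.663 in hnRNPL-deficient cells, and *E2f1* 32.1% ± 0.539 and 26.8% ± 3.99. *Tfdp2* made up 1.06% ± 0.068 of the DP sum in WT and 2.72% ± 0.183 in hnRNPL-deficient cells, so that nearly all DP RNA was *Tfdp1* in both groups. These shares restate the changes of the single genes and were not tested.

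The genes that E2F proteins act with were followed as lists, beside 4.08% called lower and 7.28% called higher of all tested genes. Of 11 genes for pocket proteins, the MuvB complex and its partners, 1 was called lower and 1 higher, with a median log2 fold change of -0.05. *Mybl2*, the B-Myb factor that joins MuvB to switch on late cell cycle genes, had 6874, 6602 and 6389 normalized counts in WT and 3111, 3601 and 2289 in hnRNPL-deficient cells. Every hnRNPL-deficient value was below WT, and the log2 fold change was -1.17 (SE 0.157, adjusted p = 0.00344 from limma). *Rbl2*, which encodes the pocket protein p130 of resting cells, had 1830, 1719 and 1630 in WT and 3109, 3048 and 2959 in hnRNPL-deficient cells, and so rose by 0.82 on the log2 scale (SE 0.096, adjusted p = 0.00201 from limma). *Rbl1*, for p107, was lower in all 3 hnRNPL-deficient libraries than in WT but under 1.5-fold (-0.48, adjusted p = 0.0810 from limma). It passed into the called genes when WT library 3 (-0.591) or hnRNPL-deficient library 1 (-0.587) was left out, which makes 2 called lower. *Rb1* (0.15, adjusted p = 0.519) and *Foxm1* (-0.26, adjusted p = 0.535) were not called by limma.

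Of 16 tested genes for the G1 cyclins, kinases and inhibitors that govern the release of E2F, 2 were called lower and 2 higher, with a median of 0.00. *Ccnd2*, the cyclin D2 gene, fell from 162167 ± 24834 to 75717 ± 8874 normalized counts (log2 fold change -1.09, adjusted p = 0.00344 from limma). *Cdc25a*, whose phosphatase activates CDK2, fell from 4778 ± 142 to 3090 ± 508 (-0.64, adjusted p = 0.0178 from limma), and lost the call when hnRNPL-deficient library 3 was left out (-0.50, under 1.5-fold). The inhibitor genes *Cdkn1a* (p21), from 471 ± 71.7 to 4769 ± 409 (3.34), and *Cdkn2b* (p15), from 56.3 ± 9.63 to 157 ± 26.4 (1.46), rose. *Cdk2* (-0.17), *Ccne1* (-0.37) and *Ccne2* (-0.70), the kinase and cyclins that complete the release, had adjusted p of 0.268, 0.300 and 0.154 in limma and were not called. *Ccne2* was called when hnRNPL-deficient library 1 was left out (-0.97, adjusted p = 0.0670 from limma). It was also called with the library number as a block (adjusted p = 0.00388 from limma, in a range up to 0.351 over the alternatives). The inhibitor gene *Cdkn2a*, named after its values were seen, was called without WT library 1 (1.78), with the block (1.34) and with equal library totals (1.39).

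Of 10 E2F coactivator genes, *Crebbp*, for the acetyltransferase CBP, fell from 30250 ± 891 to 15265 ± 1786 normalized counts (log2 fold change -0.99, adjusted p = 0.00148 from limma), and the other 9 were not called. None of 12 genes of the E2F6 repressor complex was called in either direction by limma, edgeR or DESeq2, and 2 were lower and 1 higher at an unadjusted p under 0.05. Of 13 germline genes listed here as silenced by E2F6, 11 were below the filter, with group means of 0 to 12.1 normalized counts. The 2 tested, *Stag3* (62.8 ± 26.6 to 26.6 ± 6.09) and *Zcwpw1* (484 ± 60.7 to 308 ± 32.2), were called lower, and 0 or 1 of them was called when any 1 library was left out. Of the other 11, 1 was called higher in limma with the filter at a mean of 1 normalized count, beside 2 of the list called lower. With no filter 1 was called higher and 1 lower.

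The targets of E2F were grouped by the phase in which they act. Of 48 G1/S genes, which make the proteins that license and copy DNA, 12 fell. With no minimum fold 21 were lower at an adjusted p under 0.1, and 32 were lower with no overlap between the groups. Beside them, 4.08% of all 17640 tested genes were called lower, 1406 were lower with no minimum fold, and 16.3% were lower with no overlap. None of the 48 rose in limma, edgeR or DESeq2, and none was higher at an unadjusted p under 0.05. The mean was lower in hnRNPL-deficient cells for all 48, against 52.7% of all genes, and the median log2 fold change was -0.50 beside -0.03 for all genes. The largest falls among the called genes were in *Mcm10* (3629 ± 216 to 1969 ± 498 normalized counts, log2 fold change -0.91, adjusted p = 0.0173), *Cdc6* (3874 ± 702 to 2176 ± 526, -0.85, adjusted p = 0.0301) and *Orc1* (2765 ± 497 to 1583 ± 249, -0.80, adjusted p = 0.0188), all from limma, and these load or start the replicative helicase. The number called depended on single libraries, at 7 without WT library 1, while it was 24 with hnRNPL-deficient library 1 left out and 6 with hnRNPL-deficient library 3 left out.

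Of 30 G2/M genes, which serve mitosis and are controlled by MuvB more than by E2F alone, none was called in the main fit. None was called by edgeR or DESeq2 either, and 6 were lower at an unadjusted p under 0.05 in the main limma fit. The mean was lower for 28 of the 30, with a median log2 fold change of -0.42, and 4 had groups that did not overlap in that direction, a share under the 16.3% of all genes. With WT library 2 left out 1 was called, and with hnRNPL-deficient library 1 left out 3 were. With the library number as a block in limma 6 were called lower. Of 10 tested genes listed here for E2F1-dependent cell death, the mean was higher for 6 and lower for 4, with a median log2 fold change of 0.17. None fell or was lower at an unadjusted p under 0.05, and, beside 7.28% of all genes called higher, 3 rose. These were *Trp53inp1*, a stress response gene that p53 also induces (1302 ± 137 to 8803 ± 1752 normalized counts, log2 fold change 2.74), *Bcl2l11*, for the pro-apoptotic protein BIM (4088 ± 261 to 7447 ± 277, 0.87), and *Apaf1*, the scaffold of the apoptosome (2206 ± 213 to 3456 ± 95.3, 0.65). Which regulator these rises follow was not tested.

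**Figure D4:**
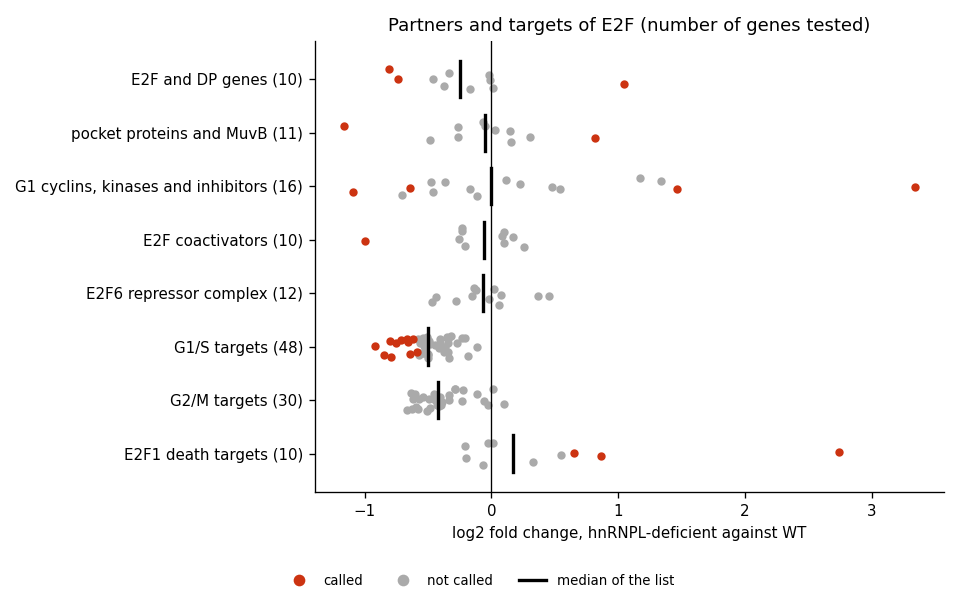
Log2 fold change (horizontal axis) of each tested gene (points) in the E2F and DP genes and in 7 lists of partners and targets, with called genes in red and the list median as a bar. The G1/S targets all lie below 0, with 12 called, and the G2/M targets lie mostly below 0 with none called.

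E2F-type letters were found in the promoter windows of 17 of 39 G1/S genes with a window (43.6%), of 3 of 24 G2/M genes (12.5%) and of 5.93% of all 27025 genes with one. Among the called G1/S genes, 4 of the 8 with a window held them. The letters TTTGAA, found in the cell cycle homology regions that MuvB binds, occurred in 18 of 24 G2/M genes (75.0%), in 8 of 39 G1/S genes (20.5%) and in 20.2% of all genes. In the *E2f3* window shown above such a match lies 23 bases before the start, next to the E2F-type match and not overlapping it.

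By library, WT library 1 was the highest WT library for 8 of the 10 members and hnRNPL-deficient library 3 the lowest of its group for 8. Relative to the WT mean, the median of the 10 members on the log2 scale was 0.21, -0.08 and -0.12 in WT, against -0.10, -0.23 and -0.43 in hnRNPL-deficient cells. The G1/S list stood at 0.20, -0.07 and -0.11 in WT and -0.27, -0.38 and -0.86 in hnRNPL-deficient cells, and the G2/M list at 0.46, -0.24 and -0.21 and at -0.06, -0.38 and -0.85. The medians of all genes stayed between -0.02 and 0.02. *E2f1* ranged from -0.48 to -1.31 within the hnRNPL-deficient group, whereas *E2f3* (-0.62 to -0.81) and *Tfdp2* (0.94 to 1.21) were tighter. The libraries at the ends were the shallowest of their groups, with 53644421 and 40395186 reads, and the part of depth in this order was not tested.

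**Figure D5:**
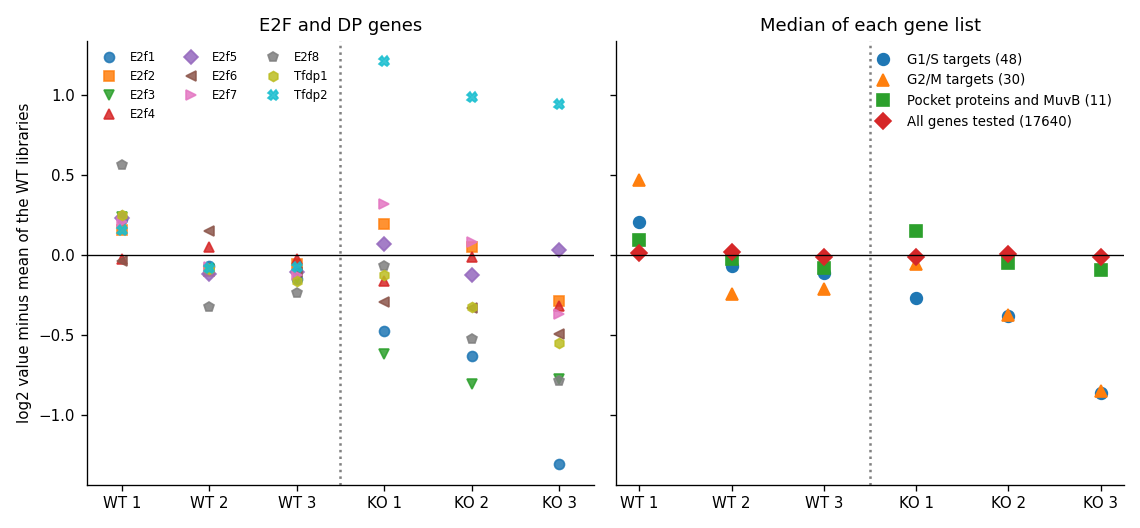
Log2 value minus the mean of the WT libraries (vertical axis) in each library (KO, hnRNPL-deficient), for the 10 genes (left) and as the median of 3 gene lists and of all tested genes (right). *Tfdp2* lies above 0.9 in all hnRNPL-deficient libraries, and the target lists reach their lowest medians in hnRNPL-deficient library 3.

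The genes whose pattern over the 6 libraries was most like that of an activator were sought among 12391 tested genes averaging 100 or more normalized counts, by the root mean square difference of the centred log2 values. For *E2f1* the nearest were *Cdc6* (0.058) and *Cit* (0.085). *Cdc6* is also on the G1/S list. For *E2f3* the nearest were *Suclg2* (0.046), *Arl6ip5* (0.051) and *Dpy19l1* (0.052), and for *E2f2* *Gltp* (0.043), *Gnpda1* (0.052) and *Pgm1* (0.054), none of which is on a list here. These are descriptions over 6 libraries that share the group difference, with no test.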

How the data were processed

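The authors trimmed reads with fastp (0.23.1), aligned them to mm10 with STAR (2.7.9a), counted them per gene by strand with featureCounts, and divided the counts by DESeq2 (1.38.2) size factors, as the study's methods and the submitters' processing notes give. The deposited values, 1 column per library, are these normalized counts (a signal, not whole reads). Its columns of the authors' own comparison (fold changes and p-values) were not used.

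limma (3.58.1, R 4.3.3) with a mean-variance trend was run two-sided on log2(normalized count + 1) for 17640 genes averaging 10 or more. A fold change on this scale understates the change of low genes. Intervals are 95%. Pairs of members were compared by exact permutation tests. Groups followed the labels. The labels name a mouse strain and genotype for each library, taken as 1 mouse each. Annotation was GENCODE on GRCm38, in which the identifiers of all 10 members matched. Promoters were from RefSeq (GRCm38.p6). Dividing each library by its smallest value gave whole reads (within 0.001) for 100% of values. The reads of 5 libraries entered edgeR (4.0.16) and DESeq2 (1.42.0) as alternatives. The values of hnRNPL-deficient library 2 also gave whole reads. That library was left out of these tests because 1 read is worth 1.01 there and an automatic test did not accept its reads as recovered. On simulated data for this comparison with 200 of 17640 genes changed, limma recovered all 50 genes at each of 4 sizes (log2 changes of -2, -1, 1 and 2) with 19 false calls. The simulation used the same spread setting for every gene and changed only genes averaging 100 or more. It does not show how often changes under 2-fold, such as those of *E2f1* and *E2f3*, are recovered.

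The members, lists and tests were chosen with earlier results of these data known. Named genes were the members, in each list the called genes with the 3 largest changes in each direction and a few fixed regulators, and the 3 genes most like each activator, of which 1 is not reported here. The alternatives were other pseudocounts, filters, scalings, variance settings, thresholds and tests, a replicate block, and leaving out each library.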

Additional observations from a re-analysis of the deposited data

How the results depend on the processing

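*E2f3* and *Tfdp2* kept their direction and call under all 17 alternatives at the same thresholds. Without a mean-variance trend 1 member was called lower (*E2f1* at an adjusted p of 0.106 in limma, its range over the alternatives being 0.00441 to 0.115) and 7 G1/S genes, from 2 and 12. At an adjusted p under 0.05 and 2-fold, 0 members and 0 G1/S genes were called lower, and with no fold minimum 21 G1/S genes. When 1 library was left out, 1 to 2 members, 6 to 24 G1/S genes and 0 to 3 G2/M genes were called lower. *E2f1* was not called without WT library 1 or hnRNPL-deficient library 3. Over all genes 478 were called lower and 830 higher without WT library 3, from 719 and 1284.

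Signs turned where changes were near 0. With equal library totals *E2f2* was at 0.040 and *E2f5* at 0.045, and with quantile normalization *E2f2* was at 0.036 and *E2f7* at -0.011. With libraries left out in turn *E2f2* lay between -0.12 and 0.12, *E2f5* between -0.071 and 0.10, *E2f7* between -0.14 and 0.20, and the shift of *E2f1* relative to *E2f3* between -0.20 and 0.16. In edgeR *E2f2* was at 0.00385 and *E2f5* at 0.078, and in DESeq2 *E2f5* was at 0.056. The cause was not tested. No scaling moved the median of all genes by more than 0.1.

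Same-numbered libraries correlated at 0.43, 0.32 and 0.07 (log2 deviations from group means, across genes), and unlike-numbered ones at -0.46 to 0.31. The labels give replicate numbers only, and the main fit did not take them to pair the mice. With the number as a replicate block 6 G2/M genes were called lower in place of 0, with *Ccne2* called lower and *Cdkn2a* higher in addition. The block called 2 members and 12 G1/S genes lower, as without it. *E2f8* (adjusted p = 0.0164) and *Tfdp1* (0.0180) stayed under 1.5-fold in this limma fit. Over all genes the block called 1018 lower and 1755 higher, from 719 and 1284. Libraries 1 and 2 of both groups and hnRNPL-deficient library 3 correlated best with their own number, and WT library 3 with hnRNPL-deficient library 2. Depth limits the lowest genes most, such as *Stag3*, and the members had 512 reads or more in every library.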
